A study of Mus musculus with 6 samples.

Results

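Nucleotide excision repair and mismatch repair were described here through 33 genes taken by name: the damage recognition, transcription-coupled, TFIIH, incision, single-strand binding, gap filling and mismatch repair factors. Of these, 32 were found by name among the 28510 genes of the RNA table and all 32 passed the expression filter, while Uvssa was not found under that name. The tibialis anterior, which lifts the foot, had been taken whole from C57BL/6 mice at 12 months of age and profiled by RNA sequencing in 3 WT and 3 KO samples. The WT samples carried H2A-Z.1flox/flox and H2A-Z.2 flox/flox alleles and were wild type for HSA Cre. The KO samples were H2A-Z.1-/-, H2A-Z.2-/- and HSA Cre+, so both genes for the histone variant H2A.Z had been removed by a Cre under the human skeletal actin promoter, which acts in muscle fibres. Other cells of the muscle keep their alleles under such a promoter, and the labels do not say whether each sample is a separate animal. The series asked how H2A.Z acts on transcription in this tissue, and its title ties H2A.Z to the start of DNA repair.

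Nucleotide excision repair removes bulky, helix-distorting lesions. Damage is found either by the XPC complex anywhere in the genome or by an RNA polymerase that stalls on it. TFIIH then opens the helix, XPA and RPA check and hold the open strands, nucleases cut on both sides, and the gap is filled and sealed by replication factors. Mismatch repair uses the same filling and sealing factors and corrects replication errors, and muscle fibres no longer divide.

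For most of these genes no change between WT and KO muscle was called. In KO, 2 of the 32 rose, Rpa1 and Lig1, and 5 fell, Mlh3, Gtf2h4, Mnat1, Rad23b and Cetn2 (edgeR's quasi-likelihood test, threshold of 0.05 for p adjusted over the 16628 genes tested). Of all genes tested 25.9% were called in either direction, 13.5% risen and 12.4% fallen, so the share of repair genes called was not above that of genes at large. Changes were small, between log2 -0.94 for Mlh3 and 0.81 for Rpa1. The median log2 fold change of the 32 genes was -0.18, against 0.01 over all genes tested. Of the 32, 26 had a negative log2 fold change with TMM scaling, against 15 with library size alone. Among all genes tested 49% had a negative value with TMM scaling. Library size alone moved the median of all genes to 0.22 and that of the 32 to 0.04, and the 32 genes' median minus that of all genes was -0.194 with TMM and -0.185 with library size alone. An unadjusted p under 0.05 was reached by 12 of the 32, against 38.3% of all genes tested. The libraries of the groups did not overlap in 14 of the 32, against 42.6% of all genes. In 12 every KO library was below every WT library, against 21% of all genes, and in 2 every KO library was above, against 21.6%. Rpa1, Mlh3 and Gtf2h4 kept their calls with each single library left out, whereas the calls of Lig1, Rad23b, Cetn2 and Mnat1 did not.

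**Figure D1:**
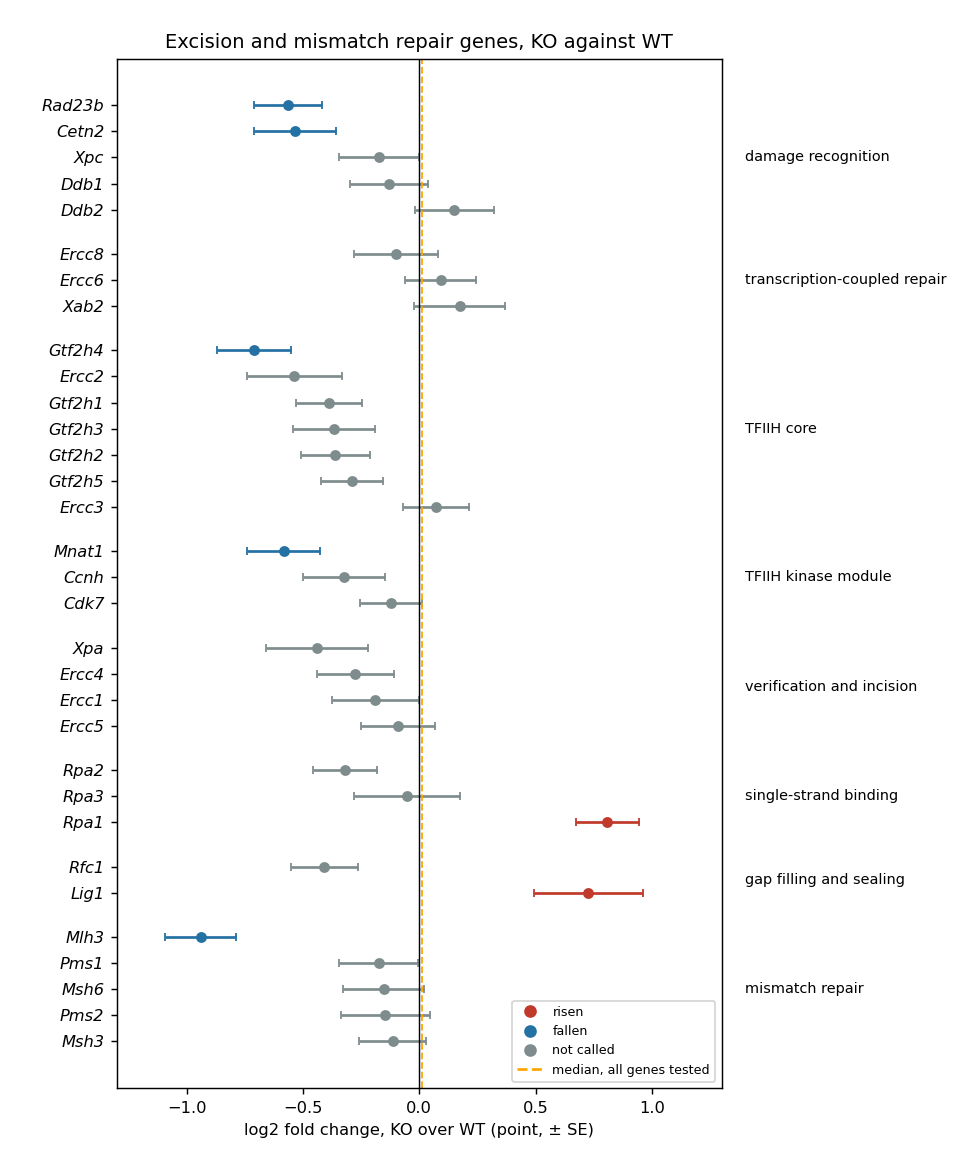
The plot shows the log2 fold change of KO over WT (point) with its SE (bar) for each of the 32 repair genes, arranged by role, with the median of all genes tested as a dashed line. Rpa1 and Lig1 stand at 0.81 and 0.73 on the right, Mlh3 stands furthest to the left at -0.94, and most other genes lie between -0.6 and 0.2.

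Depth and markers of other cells differed between libraries. Libraries held 35456883 to 102919416 counts, with WT replicate 2 the shallowest, and the 32 genes together took 25333 to 71326 of them. Mitochondrial genes took 19.9% to 25.5% of counts in WT and 21.7% to 32.1% in KO, highest in KO replicate 2. Both targeted genes were low in each KO library, H2afz at 4.14 to 5.15 CPM (counts scaled to library depth, with TMM) against 15.2 to 18.5 in WT, and H2afv at 3.77 to 4.57 against 16.0 to 20.7. The 6 fibre markers summed to 199533 to 221303 CPM in WT and 133505 to 176391 in KO, with 0 of 6 called by edgeR and Ckm and Myh4 lower at an unadjusted p under 0.05. Ttn made up most of these sums. In the authors' deposited table Ckm, Myh4 and Ttn were lower in KO, with adjusted p of 0.00637, 0.00215 and 0.0178. Macrophage markers summed to 65.8 to 147 CPM in WT and 208 to 304 in KO with 5 of 7 risen, and fibroblast markers to 550 to 830 and 790 to 1467 with 2 of 4 risen. Endothelial markers summed to 125 to 136 and 93.7 to 119 CPM, with 0 of 3 called by edgeR and 1 at an unadjusted p under 0.05, Kdr. Satellite cell markers summed to 7.04 to 8.49 and 7.49 to 10.4 CPM, with 0 of 3 called and 0 at an unadjusted p under 0.05. B cell markers stayed under 1 CPM in sum, and only Cd79a of the 3 could be tested. No marker of any list was at 0 in all WT libraries. In whole muscle, a smaller share of cells of a type and less RNA per cell cannot be told apart, and the part of these cells in the results below was not tested.

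Levels per kb in WT muscle differed widely among the repair genes. With the length implied by the deposited signal they ran from 1.14 CPM per kb for Msh6 to 65.0 for Rad23b. The highest of each role, beside Rad23b, were Rpa2 at 28.7, Ercc1 at 26.2, Gtf2h5 at 18.0, Rfc1 at 8.82, Pms1 at 6.09 and Xab2 at 4.29 CPM per kb. In the kinase module Ccnh came first with that length. With the longest annotated transcript as the length, Ccnh stood at 6.16 CPM per kb, below Cdk7 at 9.59. By that length Pms1 stood at 1.29 CPM per kb, below Mlh3 at 3.13 and Msh3 at 3.07, and the lowest of the 32 was Lig1 at 0.364. The highest gene in damage recognition, the kinase module and mismatch repair thus depended on the length used, and that of the other 5 roles was the same with both.

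RPA, the trimer that coats single-stranded DNA, was uneven across its subunits. Rpa1, the largest subunit, which carries most of the DNA-binding surface, stood at 49.6, 45.5 and 51.0 CPM in the 3 WT libraries and 81.3, 84.6 and 90.4 CPM in the 3 KO libraries. The groups lay far apart, with the highest WT library well under the lowest KO library. Rpa1 rose 1.75-fold (log2 0.81 ± 0.13 SE, adjusted p = 0.00202 by edgeR). Rpa2, the middle subunit, which is phosphorylated after damage, stood at 18.7, 16.2 and 17.7 CPM in WT and 14.5, 12.5 and 15.2 CPM in KO. Its KO libraries were all below its WT libraries but the difference was not called (log2 -0.32 ± 0.14 SE, adjusted p = 0.115 by edgeR). Rpa3, the smallest subunit, ranged over 1.77 to 2.63 CPM in WT and 1.87 to 2.57 CPM in KO, with overlapping groups and a log2 fold change of -0.05 (SE 0.23). As a ratio of reads within a library, which no scaling between libraries can move, Rpa1 over Rpa2 was 2.65, 2.80 and 2.88 in WT and 5.59, 6.76 and 5.96 in KO. The mean ratio was 2.20 times as high in KO, and the exact two-sided permutation test gave p = 0.1, the smallest value 3 libraries against 3 allow. With Rpa1 higher and Rpa2 lower in every KO library, this ratio could not overlap between the groups. Its test therefore adds nothing to the values of the 2 genes.

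The bases before the start sites of the 3 genes whose calls held with every single library left out are shown because these genes moved in opposite directions. Each run covers 250 bases up to the start in the RefSeq promoter table (GRCm38.p6), read along the gene's own strand. Capitals mark matches on either strand to GGGCGG (the GC box), CCAAT (the CCAAT box) or CACGTG (the E-box). Rpa1 lies at chr11:75348384-75348633, Mlh3 at chr12:85270600-85270849 for the first of its 2 listed starts and Gtf2h4 at chr17:35673744-35673993, all on the minus strand.
Rpa1: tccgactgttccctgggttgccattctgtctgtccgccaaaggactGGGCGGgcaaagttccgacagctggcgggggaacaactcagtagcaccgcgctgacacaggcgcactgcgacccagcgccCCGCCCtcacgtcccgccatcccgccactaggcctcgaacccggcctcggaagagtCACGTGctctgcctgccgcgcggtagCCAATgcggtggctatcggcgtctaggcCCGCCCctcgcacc
Mlh3: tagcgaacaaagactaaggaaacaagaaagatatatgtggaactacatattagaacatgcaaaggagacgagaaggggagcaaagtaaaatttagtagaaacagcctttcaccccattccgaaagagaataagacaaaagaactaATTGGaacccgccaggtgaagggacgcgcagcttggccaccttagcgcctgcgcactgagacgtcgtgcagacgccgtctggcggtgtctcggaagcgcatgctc
Gtf2h4: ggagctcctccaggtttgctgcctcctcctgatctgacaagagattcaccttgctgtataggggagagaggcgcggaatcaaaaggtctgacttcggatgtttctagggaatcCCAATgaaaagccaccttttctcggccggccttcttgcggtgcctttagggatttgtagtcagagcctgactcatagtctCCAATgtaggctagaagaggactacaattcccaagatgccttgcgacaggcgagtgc
Rpa1 held 3 GC boxes, 1 CCAAT box and 1 E-box, Mlh3 held 1 CCAAT box and Gtf2h4 held 2. Of the repair genes in the RNA table, 28 had an entry in the promoter table, and 19 of these held a GC box, 17 a CCAAT box and 7 an E-box in at least 1 entry. Among all 32851 promoters of the table, 32.7% held a GC box, 33.8% a CCAAT box and 6.02% an E-box in the same window. All-promoter shares count single entries, whereas a gene counts if any of its entries matches, so the 2 are not like measures. By any entry, the 5 fallen genes held a CCAAT box in 4 cases and a GC box in 2. The 2 risen genes held a GC box in both cases and a CCAAT box in 1, but not every listed start of Lig1 had a GC box. Further motifs searched were CCGGAAG (ETS), found in 7 of the 28 genes and 6.91% of all promoters, TGACGTCA (the cyclic AMP response element), in 1 and 1.55%, and the NRF1 site, in 0 and 0.782%. The E2F site, searched as TTTCCCGC, TTTCGCGC, TTTGCCGC and TTTGGCGC, was in 1 of the 28 and in 1.86% of all promoters. None of the ETS, cyclic AMP, NRF1 and E2F matches was in a called gene. These matches are letters in a window, not measured binding.

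Among factors that fill and seal the gap, Lig1, the ligase that joins nicks during replication and repair, was the other gene that rose. Its level was low, with 95, 46 and 68 counts in the WT libraries and 240, 113 and 176 in the KO libraries. On the scaled axis it stood at 1.17, 1.31 and 1.02 CPM in WT and at 2.36, 1.74 and 1.65 CPM in KO. KO replicate 1 was highest, and the groups did not overlap. Lig1 rose 1.66-fold (log2 0.73 ± 0.24 SE, adjusted p = 0.0427 by edgeR). The call was lost when KO replicate 1 or any 1 of the WT libraries was left out, with adjusted p of 0.0616 to 0.17 in those fits. KO replicate 1 also held the most reads of cell division genes. The 6 markers of proliferating cells summed to 2.23 to 5.76 CPM in WT and to 16.0, 6.45 and 5.25 CPM in KO replicates 1, 2 and 3, with 1 of 6 risen, Mki67. Their part in the Lig1 result was not tested. Reads of Lig1 could not be told from those of Zswim9 on the opposite strand over 5.79% of its annotated exonic bases, because no source used here says whether reads were counted by strand. Rfc1, the large subunit of the clamp loader, stood at 26.8, 27.4 and 22.1 CPM in WT and 17.3, 19.0 and 21.2 CPM in KO. All KO libraries were below all WT libraries, by a narrow margin between KO replicate 3 and WT replicate 3, and the difference was not called (log2 -0.41 ± 0.14 SE, adjusted p = 0.0596 by edgeR). The Lig1 over Rfc1 read ratio was 0.0458 ± 0.0022 in WT and 0.102 ± 0.0308 in KO (SD, n = 3 each), without overlap (exact permutation p = 0.1). That outcome was fixed by the values of the 2 genes, whose groups lay apart in opposite directions. Rfc1 was called fallen by DESeq2, at adjusted p = 0.0495, and without WT replicate 3, at adjusted p = 0.0451.

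**Figure D2:**
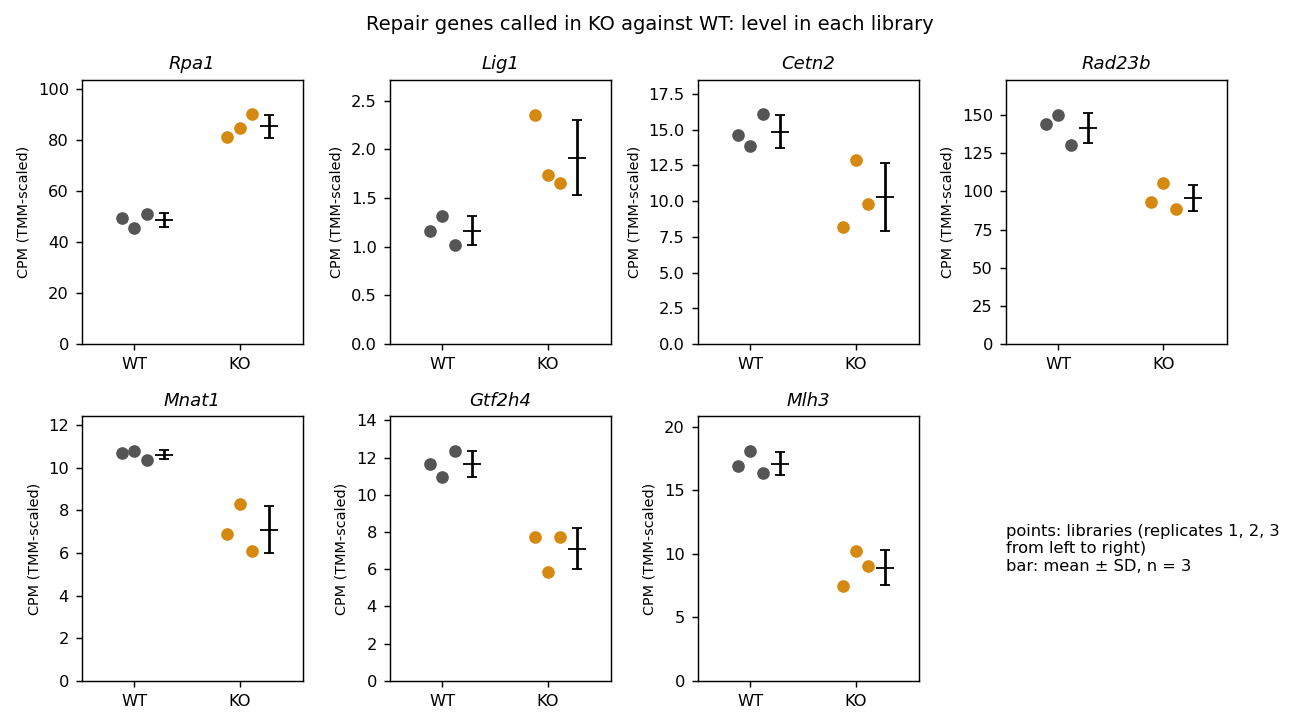
The panels show the TMM-scaled CPM of the 7 called repair genes in each of the 3 WT and 3 KO libraries (points, replicates 1 to 3 from left to right) with the mean ± SD (n = 3) beside them, on axes that start at 0. Groups do not overlap in any panel; Rpa1 is at 45.5 to 51.0 CPM in WT and 81.3 to 90.4 CPM in KO, and Cetn2 comes closest to overlap, with KO replicate 2 at 12.9 CPM and WT replicate 2 at 13.9 CPM.

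Of the 5 mismatch repair genes, Mlh3 fell and the other 4 were not called. Mlh3 encodes a MutL-type protein known best for its part in meiotic crossing over and also active in mismatch repair. It stood at 16.9, 18.0 and 16.3 CPM in WT and at 7.48, 10.2 and 9.05 CPM in KO. Every KO library was well below the lowest WT library. Mlh3 fell 1.92-fold (log2 -0.94 ± 0.15 SE, adjusted p = 0.00182 by edgeR), and it was called under all 16 alternatives, with log2 fold changes of -1.03 to -0.74. The MutL partner genes Pms1 and Pms2 had log2 fold changes of -0.17 (SE 0.17) and -0.15 (SE 0.19). Pms1 stood at 3.84, 3.79 and 4.19 CPM in WT and 3.23, 3.85 and 3.42 CPM in KO, with overlapping groups. Msh6, which recognises single-base mismatches, and Msh3, which recognises larger loops, had log2 fold changes of -0.15 (SE 0.17) and -0.11 (SE 0.14), and both overlapped between groups. Within a library, the Mlh3 over Pms2 read ratio was 2.67, 3.42 and 3.65 in WT and 1.69, 2.34 and 1.58 in KO, without overlap (exact permutation p = 0.1). The ranges of Mlh3 and Pms2 in each group left no room for overlap, so this test adds nothing to their values. The Msh6 over Msh3 ratio was 0.371 ± 0.045 in WT and 0.359 ± 0.024 in KO (SD, n = 3 each), a difference smaller than the spread between libraries (exact permutation p = 0.8).

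TFIIH is a general transcription factor with a core of 7 subunits and a kinase module of 3, and it opens DNA both at promoters and at lesions. Of its 10 genes, 2 fell, Gtf2h4 and Mnat1, and 0 rose in edgeR or DESeq2, while 5 reached an unadjusted p under 0.05. Over all genes tested 12.4% fell and 38.3% reached an unadjusted p under 0.05. A further 7 had negative log2 fold changes that were not called, of which Cdk7 turned positive with library size alone. In 6 of the 10 all KO libraries were below all WT libraries, against 21% of all genes tested. Gtf2h4, a core subunit that holds and stimulates the XPB helicase, stood at 11.7, 10.9 and 12.4 CPM in WT and at 7.74, 5.86 and 7.74 CPM in KO. The groups did not overlap. Gtf2h4 fell 1.64-fold (log2 -0.71 ± 0.16 SE, adjusted p = 0.00884 by edgeR) and missed the threshold only with library size alone, at adjusted p = 0.054, among the 16 alternatives. Mnat1, which ties the kinase to the core, stood at 10.7, 10.8 and 10.4 CPM in WT and at 6.89, 8.28 and 6.11 CPM in KO. The WT libraries were nearly equal and every KO library was lower. Mnat1 fell 1.50-fold (log2 -0.58 ± 0.16 SE, adjusted p = 0.0201 by edgeR), and its call was lost with library size alone and in every fit without 1 library except that without KO replicate 2.

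The other TFIIH subunits differed in how far they lay from 0. Ercc3, the XPB helicase, had 8.63, 8.55 and 8.69 CPM in WT and 9.60, 8.19 and 9.37 CPM in KO, a log2 fold change of 0.07 (SE 0.14). It was the only one of the 10 with a positive value on the TMM scale. Ercc2, the XPD helicase, had 11.6, 11.7 and 9.13 CPM in WT and 7.58, 5.40 and 9.32 CPM in KO. KO replicate 3 overlapped WT replicate 3, and the log2 fold change of -0.54 (SE 0.20) was not called (adjusted p = 0.0766 by edgeR). Without an expression filter Ercc2 was called fallen (adjusted p = 0.0388 by edgeR), which made 6 fallen repair genes. Ercc2 shares 24.6% and 17.8% of its annotated exonic bases with 2 genes on the opposite strand, an antisense transcript and Klc3. Gtf2h1, which docks TFIIH to XPC and XPG, Gtf2h2, which regulates the XPD helicase, and Gtf2h3 had log2 fold changes of -0.39 (SE 0.14), -0.36 (SE 0.15) and -0.37 (SE 0.18), and none was called with all libraries. Gtf2h1 was called fallen without KO replicate 2 (adjusted p = 0.0292 by edgeR) and Gtf2h3 and Ercc2 without KO replicate 3 (adjusted p = 0.0456 and 0.0361 by edgeR). Gtf2h5, the smallest core subunit, had the highest level per kb of the length implied by the deposited signal in the core, 18.0 ± 1.90 CPM per kb in WT (SD, n = 3). It stood at 30.3, 25.6 and 31.3 CPM in WT and at 24.6, 23.2 and 23.7 CPM in KO, without overlap and without a call (log2 -0.29 ± 0.13 SE, adjusted p = 0.139 by edgeR). In the kinase module, Ccnh, the cyclin H gene, stood at 11.8, 13.1 and 12.9 CPM in WT and 8.68, 12.8 and 8.68 CPM in KO, where replicate 2 alone reached the WT range. Ccnh was called fallen without KO replicate 2 (log2 fold change -0.52, adjusted p = 0.0188 by edgeR), against -0.33 and adjusted p = 0.203 with all libraries. The kinase gene Cdk7 stood at -0.12 (SE 0.13) on the log2 fold change scale. Read ratios within libraries placed Gtf2h4 against Ercc3 at 1.35, 1.28 and 1.42 in WT and 0.806, 0.716 and 0.826 in KO, and Mnat1 against Cdk7 at 0.608, 0.566 and 0.504 in WT and 0.412, 0.440 and 0.359 in KO. Neither ratio overlapped between the groups (exact permutation p = 0.1 each). The ranges of the paired genes in each group left no room for overlap. Both tests therefore add nothing to the values of these genes.

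**Figure D3:**
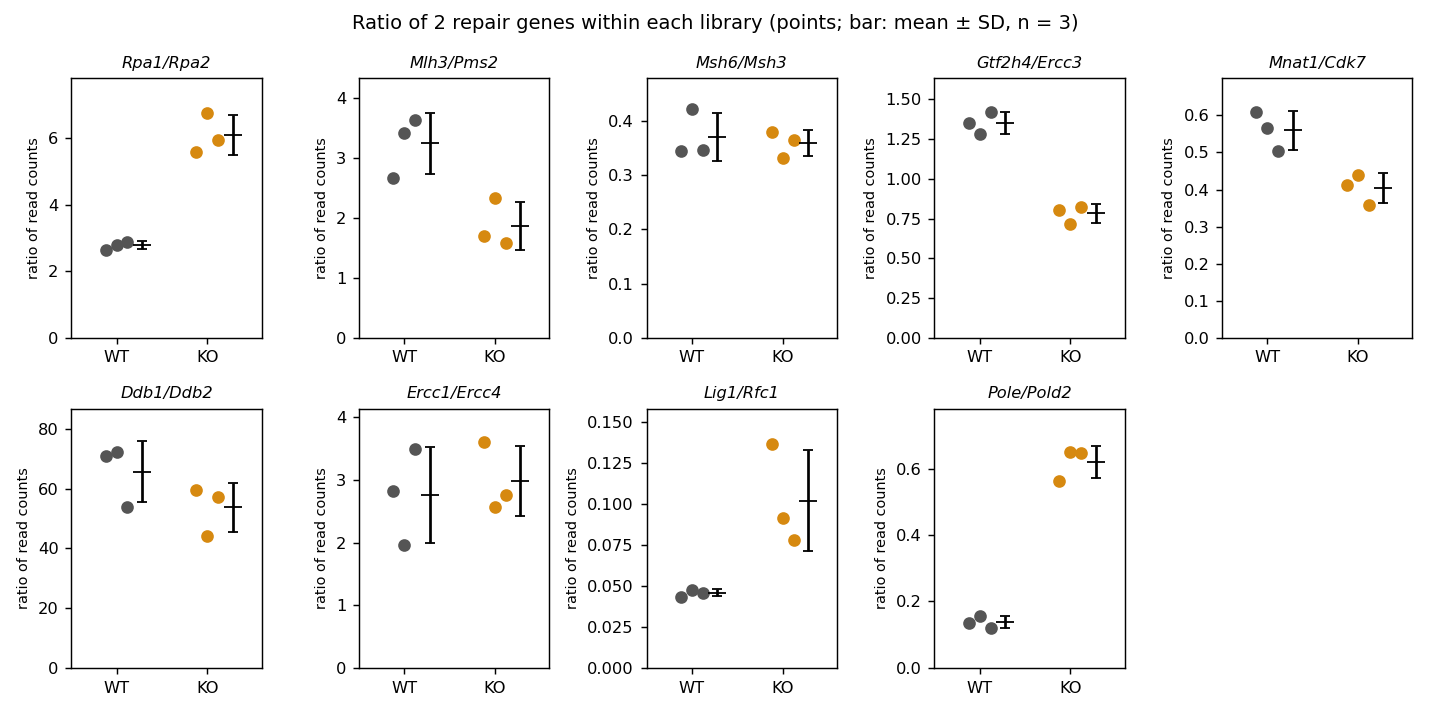
Each panel shows the ratio of the read counts of 2 repair genes in each of the 3 WT and 3 KO libraries (points) with the mean ± SD (n = 3) beside them, on axes from 0. The mean of Rpa1/Rpa2 is 2.78 in WT and 6.10 in KO, that of Gtf2h4/Ercc3 is 1.35 and 0.782, while Msh6/Msh3 and Ercc1/Ercc4 overlap between groups.

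In damage recognition, both XPC-binding partners fell and XPC's own gene was not called. Rad23b, which stabilises XPC and links it to the proteasome, stood at 144, 150 and 131 CPM in WT and at 93.2, 105 and 88.5 CPM in KO. All KO libraries were below all WT libraries, and Rad23b fell 1.48-fold (log2 -0.56 ± 0.15 SE, adjusted p = 0.0166 by edgeR). With the length that the deposited signal implies it had the highest level per kb of the 32 genes, 65.0 ± 4.51 CPM per kb in WT, ahead of Ddb1 at 50.6 ± 6.14 (SD, n = 3 each). With the longest annotated transcript Ddb1 came first, at 47.1 against 37.1 CPM per kb. Cetn2, the centrin that binds XPC, stood at 14.6, 13.9 and 16.1 CPM in WT and at 8.23, 12.9 and 9.79 CPM in KO. KO replicate 2 lay just under the lowest WT library, and Cetn2 fell 1.45-fold (log2 -0.53 ± 0.18 SE, adjusted p = 0.0457 by edgeR). The Cetn2 call was kept without KO replicate 2 and lost with each other single library left out, where adjusted p was 0.0706 to 0.181. It was also lost with the stricter expression filter and with library size alone, at adjusted p of 0.0612 and 0.166. The Rad23b call was kept without WT replicate 3 or KO replicate 2 and lost with each other single library left out, at adjusted p of 0.0539 to 0.0713, and with library size alone at 0.118. Xpc, the lesion sensor, stood at 10.6, 8.75 and 9.19 CPM in WT and at 8.02, 7.10 and 10.2 CPM in KO, a log2 fold change of -0.17 (SE 0.17). Ddb1 and Ddb2, the adaptor and the sensor subunit of the ultraviolet damage complex, had log2 fold changes of -0.13 (SE 0.17) and 0.15 (SE 0.17). Ddb2, which in human cells is a p53 target, ranged over 2.94 to 3.41 CPM in WT and 3.39 to 3.69 CPM in KO, and 23.8% of its annotated exonic bases are shared with Acp2 on the opposite strand.

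Transcription-coupled repair had 0 of its 3 genes called in edgeR, with 0 at an unadjusted p under 0.05 and 0 called by DESeq2 or limma-voom. Of all genes tested, 25.9% were called in edgeR and 38.3% reached an unadjusted p under 0.05. With only 3 genes, these counts cannot set the role apart from genes at large. Ercc6 and Ercc8, the Cockayne syndrome genes whose proteins act at the stalled polymerase, had log2 fold changes of 0.09 (SE 0.15) and -0.10 (SE 0.18). Xab2, an XPA-binding protein that also works in splicing, stood at 12.4, 11.3 and 10.8 CPM in WT and at 12.7, 9.45 and 16.6 CPM in KO. Its KO libraries spread on both sides of the WT range (log2 fold change 0.17, SE 0.19). The row named 4933407H18Rik, which RefSeq gives as a synonym of Uvssa, the factor that brings TFIIH to the stalled polymerase, stood at 10.1, 10.1 and 9.94 CPM in WT and at 10.1, 11.8 and 9.97 CPM in KO (log2 fold change 0.08, SE 0.14). It is not counted among the 32.

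The 4 verification and incision genes were not called in edgeR either, with 0 at an unadjusted p under 0.05. DESeq2 and limma-voom called 0 of them too. Over all genes tested the shares were 25.9% called in edgeR and 38.3% at an unadjusted p under 0.05. With only 4 genes, these counts cannot set the role apart either. All 4 log2 fold changes were negative with TMM scaling, against 49% of all genes tested. Those of Ercc1 and Ercc5 turned positive with library size alone. Ercc1, which with Ercc4 forms the nuclease that cuts upstream of the lesion, had the highest level per kb of the 4. It stood at 17.0, 12.4 and 21.5 CPM in WT and at 15.5, 14.0 and 15.2 CPM in KO, with the wider spread in WT (log2 fold change -0.19, SE 0.19). Ercc4 ranged over 6.01 to 6.30 CPM in WT and 4.30 to 5.52 CPM in KO, without overlap (log2 -0.27 ± 0.16 SE, adjusted p = 0.249 by edgeR). Xpa, the scaffold of the incision complex, had 2.85, 3.59 and 2.95 CPM in WT and 1.82, 2.88 and 2.22 CPM in KO (log2 -0.44 ± 0.22 SE, adjusted p = 0.164 by edgeR). For Ercc5, the nuclease that cuts downstream, the log2 fold change was -0.09 (SE 0.16).

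**Figure D4:**
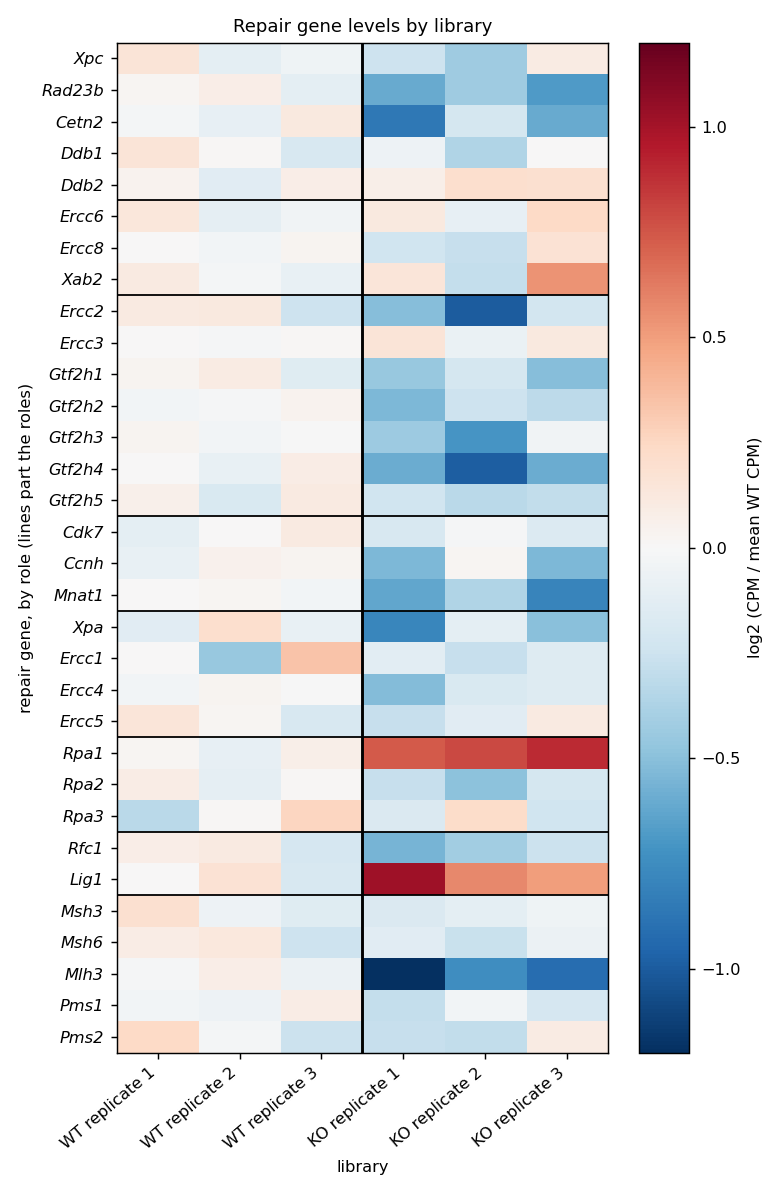
The heat map shows log2 of each library's CPM over the mean WT CPM for the 32 repair genes (rows, by role) in the 6 libraries (columns), red above and blue below the WT mean. Rpa1 and Lig1 are red and Mlh3, Gtf2h4, Mnat1 and Rad23b blue in all 3 KO libraries, and KO replicate 2 is paler than the other KO libraries for Ccnh, Cetn2 and Xpa and darker for Ercc2 and Gtf2h4.

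The KO libraries differed from one another in which repair genes stood lowest or highest. KO replicate 2 was the lowest of the 3 KO libraries for 14 of the 32 genes and the highest for 12. KO replicate 1 was the lowest for 13, and KO replicate 3 was the highest for 15. These counts rank KO libraries against each other, not against WT, and were not made over all genes. KO replicate 2 gave the lowest values for Ercc2, Gtf2h3, Gtf2h4 and Xab2 and the highest for Ccnh, Cetn2, Mnat1, Rad23b and Xpa. It was also the library with the largest mitochondrial share, and the part of that share in these values was not tested. Without KO replicate 2, 7 repair genes fell and 2 rose. When WT replicate 1, WT replicate 2 or KO replicate 1 was left out, only Mlh3 and Gtf2h4 fell and only Rpa1 rose.

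**Figure D5:**
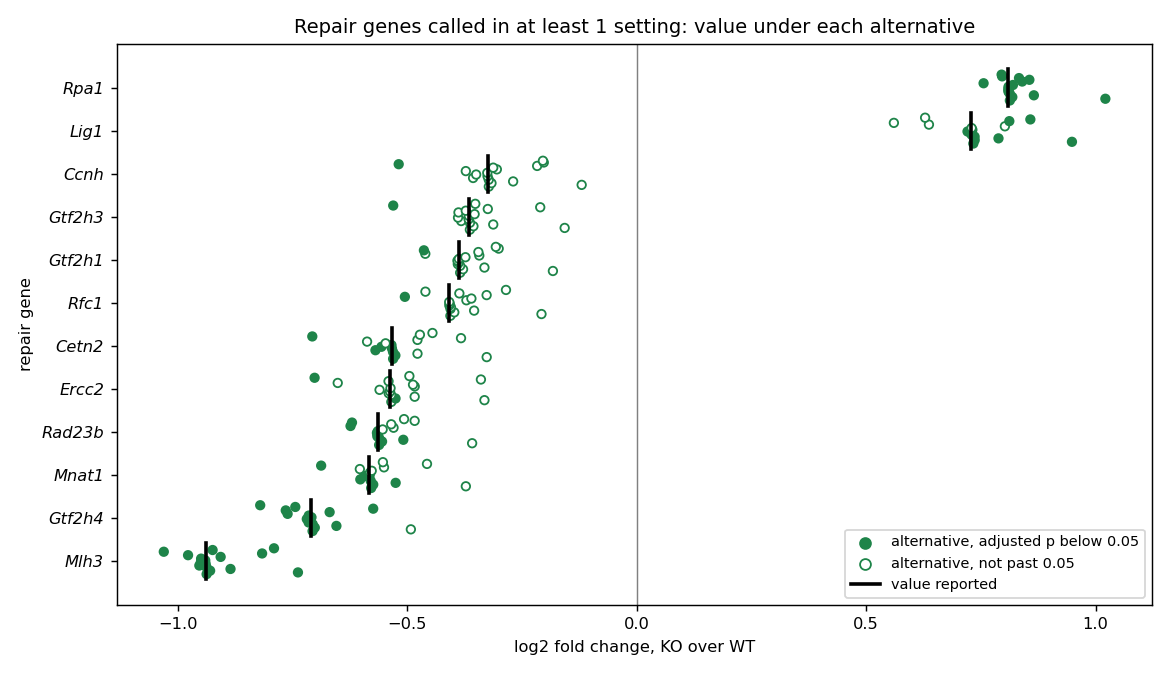
For the 12 repair genes called in at least 1 setting, the plot gives the log2 fold change of KO over WT under each of the 16 alternatives (circles, filled where adjusted p was below 0.05) and as reported (black bar). Rpa1 and Mlh3 are filled throughout, Gtf2h4 has 1 open circle, and the circles of each gene all lie on 1 side of 0.

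Of 25 other genes of the same pathways, 3 rose and 4 fell in KO, with a median log2 fold change of -0.05. Over all genes tested 13.5% rose and 12.4% fell, so these counts were near the background. Subunits of the polymerases that fill repair gaps changed in both directions. Pole, the catalytic subunit of polymerase epsilon, stood at 3.99, 3.79 and 3.59 CPM in WT and at 7.88, 6.00 and 9.07 CPM in KO and rose 2.02-fold (log2 1.01 ± 0.19 SE, adjusted p = 0.00324 by edgeR). Pold2, an accessory subunit of polymerase delta, stood at 29.6, 24.0 and 29.9 CPM in WT and at 14.0, 9.22 and 14.0 CPM in KO and fell 2.24-fold (log2 -1.16 ± 0.18 SE, adjusted p = 0.0015 by edgeR). The groups lay apart in both genes, and both calls held under all 16 alternatives. The Pole over Pold2 read ratio was 0.138 ± 0.019 in WT and 0.620 ± 0.049 in KO (SD, n = 3 each, exact permutation p = 0.1). With Pole higher and Pold2 lower in every KO library, this ratio could not overlap, so its test adds nothing. Pold1, the catalytic subunit of polymerase delta, ranged over 3.94 to 5.27 CPM in WT and 2.31 to 4.74 CPM in KO and was not called. Pold4, another delta subunit, had a positive log2 fold change that was just not called (0.63, SE 0.21, adjusted p = 0.0507 by edgeR). Pold3, Pole3 and Pole4 had log2 fold changes of -0.15, -0.05 and -0.20 and were not called. Pole2 and Polr2a, an accessory subunit of polymerase epsilon and the largest subunit of RNA polymerase II, rose by log2 0.90 (SE 0.28) and 0.60 (SE 0.16). Elof1, an elongation factor that takes part in transcription-coupled repair, fell with a log2 fold change of -0.66 (SE 0.17), and the clamp loader genes Rfc2 and Rfc4 fell with -0.48 (SE 0.16) and -0.53 (SE 0.15). The calls of Pole2, Polr2a, Elof1, Rfc2 and Rfc4 each failed in at least 3 of the fits without 1 library. Rfc2 and Rfc4 share 15.1% and 12.7% of their annotated exonic bases with a gene on the opposite strand, and Pole2 8.50% with another gene model on its own strand. Pcna, the sliding clamp, stood at 14.1 to 15.8 CPM in WT and 17.5 to 21.5 CPM in KO, without overlap and without a call (log2 0.32 ± 0.14 SE, adjusted p = 0.114 by edgeR).

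Against the authors' deposited table, 6 of the 7 calls among the 32 repair genes stood at an adjusted p below 0.05 there too and in the same direction. In the authors' deposited table Rpa1 had a log2 fold change of 0.79 (adjusted p = 6.01e-08) and Mlh3 -0.91 (adjusted p = 1.31e-06). Lig1 was the exception in the authors' deposited table, at 0.66 with adjusted p = 0.083. Among the 25 other genes, Rfc2 and Pole2 were called here but had adjusted p = 0.0593 and 0.0977 in the authors' table. Rbx1 and Pold4 were not called here but had adjusted p = 0.0469 and 0.0436 in the authors' table.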

How the data were processed

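RNA of frozen tibialis anterior was measured in 3 WT and 3 KO samples, with groups and replicate numbers from the sample titles. Libraries were stranded total RNA depleted of ribosomal RNA, per the labels' protocols. Without giving roles, HTSeq 0.6.1, Bowtie, TopHat2 2.0.14, bcl2fastq 2.17.1.14 and the build mm9 are named in the submitters' processing notes. No source used here names the annotation or the strand setting. The authors deposited raw read counts per gene, a length-divided normalized signal, and their own log2 fold change, p-value and adjusted p-value, per the file headers.

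The quasi-likelihood test of edgeR 4.0.16 (R 4.3.3) was run on TMM-scaled counts without covariates. The group-wise filterByExpr, set to 10 counts and a total of 15, kept 16628 genes, and p was adjusted over all of them by Benjamini-Hochberg, with a threshold of 0.05 for "rose", "fell" and "called". The SE is the log2 fold change divided by the square root of F. The samples are named as replicates, not as separate animals, so every p-value reflects only how these samples vary, which may be technical. Levels per kb use the length obtained from counts, size factors and the deposited signal. That length was less than 0.5 times the longest transcript of GENCODE M21 for 12 of the 32 genes, so the longest transcript was tried as well, chosen after seeing the data. Exonic overlaps come from the same annotation (GRCm38), and 13 of the 32 genes have one. Called genes with one are Lig1 and Rpa1, the latter with a microRNA model over 0.789% of its exonic bases. The 10 read ratios were chosen after values were seen and tested by exact two-sided permutation of log2 ratios; adjusted over the 10, the lowest p is 0.167. One of these ratios is not reported here.

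Members and lists were chosen with earlier results of these data known. All 32 genes are named, with every library's value for called genes and for the gene with the highest level per kb in each role, and called genes of the 25 others; further per-library values were added after they were seen. Counts were simulated for KO against WT with 16346 genes, of which 100 were altered by log2 0.7 and 100 by log2 1. Of the altered genes edgeR called 33% at log2 0.7 and 76% at log2 1, and 10 unaltered genes were called. In the data 25.9% of genes were called, a far larger share than was altered in the simulation. The adjusted p depends on that share, so these rates do not give the share of real changes called here. Alternatives were other scaling, filters, DESeq2 1.42.0, limma-voom (limma 3.58.1), robust dispersion, a replicate block, abundant genes left out and libraries left out. Figures were drawn with matplotlib 3.10.9.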

Additional observations from a re-analysis of the deposited data

How the results depend on the processing

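The number of risen repair genes (2) was 1 on leaving out both WT replicate 2 and KO replicate 1 and 1 to 2 with each library left out in turn. Fallen repair genes (5) numbered 1 with library size alone, 2 with both those libraries left out, and 2 to 7 with each library left out. Over all genes, 3418 rose and 1030 fell with library size alone, 1113 and 977 with both libraries left out, and 1391 to 2321 rose and 1168 to 2189 fell with each library left out. Risen calls were 52.2% of all calls with TMM and 76.8% with library size alone. Of the 25 other genes, 5 rose and 1 fell with library size alone, 2 fell without an expression filter, 2 fell with both libraries left out, and 1 to 3 rose and 1 to 4 fell with each library left out. The stricter filter, DESeq2, limma-voom, robust dispersion and the omission of mitochondrial and haemoglobin genes kept these counts within 1.5 times. With the replicate number as a block, 2 repair genes rose and 5 fell, and 2457 and 2236 of all genes did. Deviations of same-numbered WT and KO libraries correlated at 0.0154 to 0.0632, so the numbers were not taken as pairs.

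Log2 fold changes that changed sign were all uncalled. With library size alone Xpc stood at 0.038, Ddb1 at 0.080, Ercc8 at 0.11, Cdk7 at 0.089, Ercc1 at 0.039, Ercc5 at 0.11, Rpa3 at 0.16, Msh3 at 0.10, Msh6 at 0.053, Pms1 at 0.037 and Pms2 at 0.059. With each library left out in turn, Xab2 ranged from -0.017 (without KO replicate 3) to 0.37, Ercc1 from -0.37 to 0.016 (without WT replicate 3), Ercc5 from -0.18 to 0.0044 (without KO replicate 1) and Rpa3 from -0.20 to 0.10. Ercc5 stood at 0.00092 with both libraries left out. Rpa3 stood at 0.0042 with the stricter filter, at 0.10 without WT replicate 3, 0.015 without KO replicate 1, 0.06 without KO replicate 3 and 0.0062 with both left out. The cause was not tested. With 3 libraries a group and member SEs around 0.17, a missed call does not show an unchanged level.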
